A study of Mus musculus with 9 samples.

Results

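The genes described here encode the chemokines that draw neutrophils into tissue and the surface receptors with which neutrophils answer. They were chosen by symbol: 10 genes, namely Cxcl1, Cxcl2, Cxcl3, Cxcl5, Cxcr2, Csf3, Csf3r, Trem1, Fpr1 and Fpr2. Of these, 8 had a transcript cluster with exactly 1 gene symbol in the platform annotation, out of 30142 genes so named, and each of the 8 was covered by 1 such cluster. No cluster used here carried Fpr1 or Fpr2 as its symbol, so these formyl peptide receptors were not analysed here.

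RNA of whole neck skin from male C57BL/6 mice, aged 6 to 8 weeks, was measured on 9 Affymetrix arrays. There were 3 arrays of urushiol-challenged skin, 3 of oxazolone-challenged skin and 3 of healthy control skin. Urushiol is the plant oil that causes poison ivy rash, and oxazolone is a synthetic hapten, a small molecule that becomes allergenic once bound to protein. Challenged mice received the allergen at 2.0% on the abdomen and, starting 5 days later (day 0), at 0.5% in 40 µl acetone on the nape, for 5 challenges ending on day 8, and skin was collected 4 hours after the last. The labels do not say whether control mice were shaved or received acetone, and in a comparison with control skin both cannot be told apart from the allergens. All 3 groups are mice of the same inbred strain and sex, and the titles call the replicates biological.

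Neutrophils follow gradients of CXC chemokines that carry the amino acids glutamate, leucine and arginine before the CXC motif. Cxcl1, Cxcl2, Cxcl3 and Cxcl5 encode such chemokines, which keratinocytes, fibroblasts, endothelium, mast cells and macrophages can make, and which act through the receptor CXCR2 on neutrophils. Csf3 encodes granulocyte colony-stimulating factor (G-CSF), which drives neutrophil production in bone marrow through its receptor, the product of Csf3r, and TREM1 is a receptor on neutrophils and monocytes that amplifies inflammatory signals.

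Values are log2 expression values as deposited, 1 per cluster and array. In the text, ± after a group mean is the SD over n = 3 arrays, and ± after a difference is limma's standard error. A gene is said to have risen or fallen where limma gave an adjusted p under 0.05 in 1 fit of all 9 arrays. Values of different genes come from different probes, so levels are compared between groups and not between genes. The deposited values reach 19.93, past the log2 limit of 16 of a 16-bit scanner, by a step that no label names, so a log2 difference may not equal the log2 ratio of RNA amounts. No value of the 8 genes exceeded 14.05.

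Across the series, control array 3 stood apart. It correlated across genes at 0.978 to 0.979 with the other controls, which correlated at 0.995 with each other. Its mean over 7 hair follicle markers was 13.75, against 6.03 and 6.28 on control arrays 1 and 2, 12.58 to 13.41 in urushiol-challenged and 13.26 to 16.12 in oxazolone-challenged skin. The mean over 8 skeletal muscle markers was 11.41 to 12.39 in urushiol-challenged and 7.22 to 9.32 in oxazolone-challenged skin, against 15.88 to 18.03 in control skin. The mean over 7 markers of interfollicular keratinocytes, which define the labelled tissue, was 15.39 to 15.65 in urushiol-challenged, 15.19 to 15.65 in oxazolone-challenged and 15.31 to 15.97 in control skin. The part of these differences in the results below was not tested. For the 8 genes, the counts called and the differences were also computed without control array 3, as were the counts over all genes. The gene lists and correlations below were read on all 9 arrays only.

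**Figure D1:**
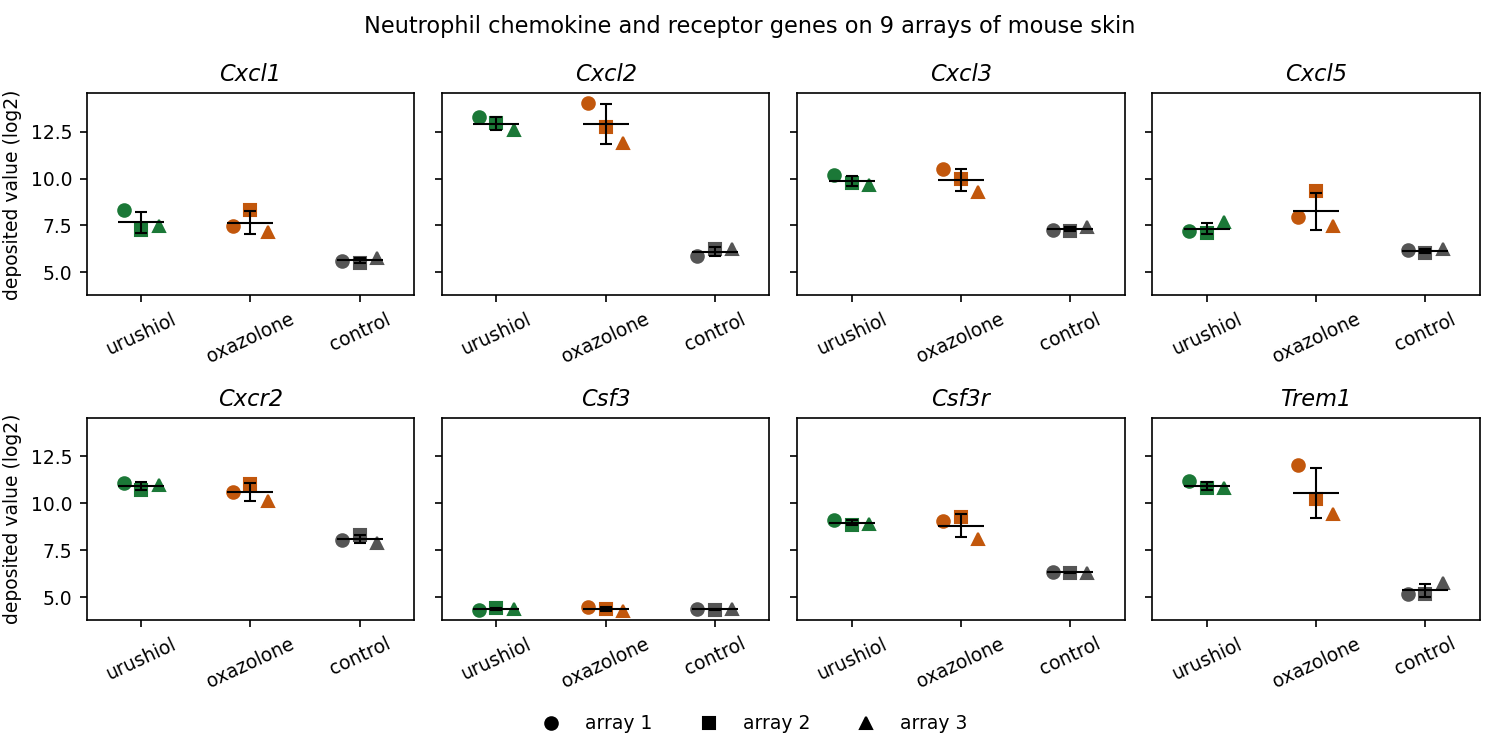
Deposited log2 value (y axis) of the 8 measured genes on each array of urushiol-challenged, oxazolone-challenged and control skin (x axis); point shapes give the array number, the wide bar the group mean and the error bar the SD of 3 arrays. In 7 genes every challenged array lies above every control array, and in Csf3 all 9 arrays lie between 4.28 and 4.46.

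With urushiol, 6 of the 8 genes rose over control skin, and with oxazolone 7 did, while none fell in either comparison. In the same fit 9.96% of all genes were higher with urushiol and 9.63% with oxazolone, and 6.43% and 6.92% were lower. The median difference of the 8 genes was 2.61 with urushiol and 2.50 with oxazolone, against 0.040 and 0.057 over all genes. For 7 of the 8 genes, in each comparison, all 3 challenged arrays lay above all 3 control arrays, which held for 21.1% of all genes with urushiol and 21.3% with oxazolone. Both comparisons use the same 3 control arrays and are therefore not independent of each other. Without control array 3 the counts were also 6 and 7.

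Of the chemokine genes, Cxcl2 showed the biggest difference. Its protein, known in mice as MIP-2, is a CXCR2 ligand made by macrophages, mast cells and neutrophils themselves. Cxcl2 stood at 13.26, 12.97 and 12.57 in urushiol-challenged skin and at 14.05, 12.75 and 11.92 in oxazolone-challenged skin, against 5.85, 6.22 and 6.26 in control skin. The lowest challenged array, oxazolone array 3, lay 5.66 log2 units above the highest control array. The difference was 6.82 ± 0.50 for urushiol (adjusted p = 0.000675) and 6.80 ± 0.50 for oxazolone (adjusted p = 0.000698). It ranged from 6.66 to 7.01 and from 6.23 to 7.29 over the 18 alternatives tried for each comparison, and was called in all of them.

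Cxcl3, which encodes a close relative of CXCL2, followed with a smaller difference. Its values were 10.17, 9.77 and 9.64 with urushiol and 10.52, 9.96 and 9.31 with oxazolone, against 7.26, 7.20 and 7.41 in control skin. The challenged arrays did not overlap with the controls, and the oxazolone arrays spread around the urushiol arrays on both sides. Cxcl3 rose by 2.57 ± 0.29 with urushiol (adjusted p = 0.00291) and by 2.64 ± 0.29 with oxazolone (adjusted p = 0.00268).

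Cxcl1, whose product is the mouse chemokine KC, a ligand of CXCR2 that many skin cells can secrete, stood at 8.30, 7.24 and 7.46 with urushiol. With oxazolone it stood at 7.49, 8.32 and 7.14, and in control skin at 5.63, 5.51 and 5.78. Within each allergen 1 array was well above the others, urushiol array 1 and oxazolone array 2, and all 6 lay above the controls. The rise was 2.03 ± 0.36 with urushiol (adjusted p = 0.0128) and 2.01 ± 0.36 with oxazolone (adjusted p = 0.0137). The urushiol call was lost without control array 2 (adjusted p = 0.0508), and the oxazolone call without control array 1 (adjusted p = 0.0504) or 2 (adjusted p = 0.0529), with differences of 1.95 to 2.01.

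Cxcl5 was the chemokine gene in which the allergens came out most unlike. Its product, known in mice as LIX, is made by epithelial and stromal cells. Cxcl5 stood at 7.22, 7.11 and 7.66 in urushiol-challenged and at 7.96, 9.36 and 7.46 in oxazolone-challenged skin, against 6.19, 6.03 and 6.23 in control skin. Oxazolone array 2 was the highest, and the urushiol and oxazolone arrays overlapped. Against control the difference was 2.11 ± 0.45 with oxazolone (adjusted p = 0.0228), a rise, and 1.18 ± 0.45 with urushiol, which did not pass (adjusted p = 0.117) although all 3 urushiol arrays lay above the controls. The oxazolone call was lost without control array 1 (adjusted p = 0.0704), control array 2 (adjusted p = 0.0765) or oxazolone array 1 (adjusted p = 0.0544), and in a fit of the 2 groups alone (adjusted p = 0.0749), with differences of 2.05 to 2.26. Without oxazolone array 2 the difference was 1.56 and was called (adjusted p = 0.0108). Conversely, urushiol passed without oxazolone array 2 (adjusted p = 0.0158) and in the fit of the 2 groups alone (adjusted p = 0.0245).

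The 4 chemokine genes lie on mouse chromosome 5, in a run of genes in the RefSeq table that also holds Ppbp, Pf4 and Cxcl15. RefSeq promoter windows, 250 bases before to 50 bases after the annotated start on GRCm38.p6, were at hand for Cxcl1, Cxcl2, Cxcl3, Cxcr2, Csf3r, Trem1, Fpr1 and Fpr2. The 3 chemokine windows are shown because they share a run of letters of the kind bound by NF-kappaB. Inflammatory cytokines activate this factor. Cxcr2, Csf3r and Trem1 also rose with both allergens, and their windows hold no such match. Capitals mark the matches on either strand to the motif searched, which reads GGG, then any 2 bases, then TTTCC.
Cxcl1, chr5:90890995-90891294, + strand: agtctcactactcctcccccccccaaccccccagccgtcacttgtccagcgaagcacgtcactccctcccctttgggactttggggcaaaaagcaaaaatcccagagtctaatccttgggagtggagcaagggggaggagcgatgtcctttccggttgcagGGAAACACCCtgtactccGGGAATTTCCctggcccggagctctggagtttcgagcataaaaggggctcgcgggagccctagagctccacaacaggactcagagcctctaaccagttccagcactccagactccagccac
Cxcl2, chr5:90903649-90903948, + strand: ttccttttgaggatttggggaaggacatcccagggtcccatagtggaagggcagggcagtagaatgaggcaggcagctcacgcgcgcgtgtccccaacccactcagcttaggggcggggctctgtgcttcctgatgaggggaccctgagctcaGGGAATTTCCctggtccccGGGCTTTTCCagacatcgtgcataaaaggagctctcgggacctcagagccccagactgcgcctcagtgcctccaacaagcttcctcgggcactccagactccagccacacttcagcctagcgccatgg
Cxcl3, chr5:90785851-90786150, + strand: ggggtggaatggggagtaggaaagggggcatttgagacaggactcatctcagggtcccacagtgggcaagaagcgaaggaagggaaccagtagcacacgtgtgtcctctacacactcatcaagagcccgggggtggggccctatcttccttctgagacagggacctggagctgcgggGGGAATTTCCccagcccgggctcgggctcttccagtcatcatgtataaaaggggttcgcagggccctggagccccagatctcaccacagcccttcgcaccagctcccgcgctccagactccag

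The letters GGGAATTTCC stand in all 3 windows, at positions -71 to -62 in Cxcl1, -97 to -88 in Cxcl2 and -73 to -64 in Cxcl3, counted from the annotated start. Cxcl2 holds a further match, GGGCTTTTCC, at -78 to -69, and Cxcl1 holds GGAAACACCC, a match on the opposite strand, at -89 to -80. A match to this motif on either strand was found in 1.63% of all 32851 windows of the table, and in 3 of the 8 windows of the genes chosen. These 3 windows belong to related neighbouring genes, so their matches may not be independent of each other. The AP-1 motif TGANTCA was found in 0 of these 8 windows and in 7.81% of all. The C/EBP type motif TTNNGNAA was found in 4 of the 8, those of Cxcl2, Trem1, Fpr1 and Fpr2, and in 40.7% of all, and none of its matches overlapped an NF-kappaB type match. These are matches of letters, and binding was not measured.

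**Figure D2:**
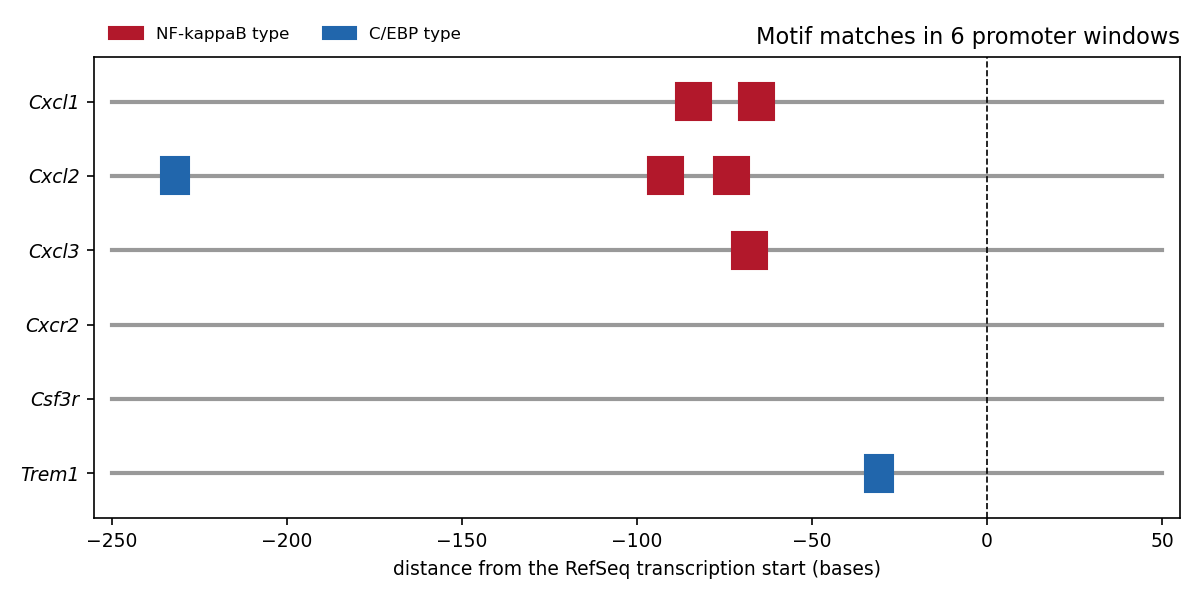
Motif matches on either strand along the promoter windows of 6 measured genes, by distance from the RefSeq start (x axis, bases); red boxes are NF-kappaB type and blue boxes C/EBP type matches. The red matches lie between -97 and -62 in Cxcl1, Cxcl2 and Cxcl3, with none in Cxcr2, Csf3r and Trem1.

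Cxcr2, the gene of the neutrophil receptor for these chemokines, rose with both allergens. It stood at 11.10, 10.69 and 10.96 with urushiol and at 10.62, 11.05 and 10.12 with oxazolone, against 8.02, 8.33 and 7.91 in control skin. No challenged array overlapped with a control array, and the gap between the groups was 2.36 for urushiol and 1.79 for oxazolone. The difference from control was 2.83 ± 0.24 (adjusted p = 0.00109) with urushiol and 2.51 ± 0.24 (adjusted p = 0.0017) with oxazolone. Whole skin holds many cell types, so a higher value cannot tell more neutrophils from more RNA per cell or from RNA of other cells. This holds for all the receptor genes.

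The growth factor gene Csf3 showed no difference above the spread of the arrays. It stood at 4.31, 4.40 and 4.36 in urushiol-challenged and at 4.46, 4.35 and 4.28 in oxazolone-challenged skin, against 4.35, 4.32 and 4.35 in control skin. The groups overlapped, and its cluster lay below the array median of all clusters on all 9 arrays. The difference was 0.017 ± 0.053 with urushiol (adjusted p = 0.882) and 0.023 ± 0.053 with oxazolone (adjusted p = 0.79), with 95% intervals of -0.11 to 0.14 and -0.10 to 0.15. Values this dim give no measure of whether G-CSF transcripts were present, and the direction reversed on rescaling.

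In contrast, the gene of the G-CSF receptor, Csf3r, rose. This receptor sits on neutrophils and their precursors. Csf3r stood at 9.11, 8.87 and 8.90 with urushiol and at 9.04, 9.25 and 8.11 with oxazolone, against 6.34, 6.30 and 6.30 in control skin. The controls lay within 0.04 log2 units of each other, and all challenged arrays were above them. It rose by 2.65 ± 0.27 with urushiol (adjusted p = 0.0019) and by 2.49 ± 0.27 with oxazolone (adjusted p = 0.00253).

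Trem1, which signals through the adapter encoded by Tyrobp and strengthens Toll-like receptor responses, had the second biggest difference of the 8 genes. Its values were 11.18, 10.80 and 10.81 with urushiol and 12.04, 10.21 and 9.44 with oxazolone, against 5.15, 5.17 and 5.77 in control skin. The urushiol arrays lay close together inside the wide range of the oxazolone arrays, and both groups were far above the controls. Trem1 rose by 5.57 ± 0.60 with urushiol (adjusted p = 0.00245) and by 5.20 ± 0.60 with oxazolone (adjusted p = 0.00313), and the difference ran from 5.44 to 5.77 and from 4.46 to 5.76 over the alternatives.

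**Figure D3:**
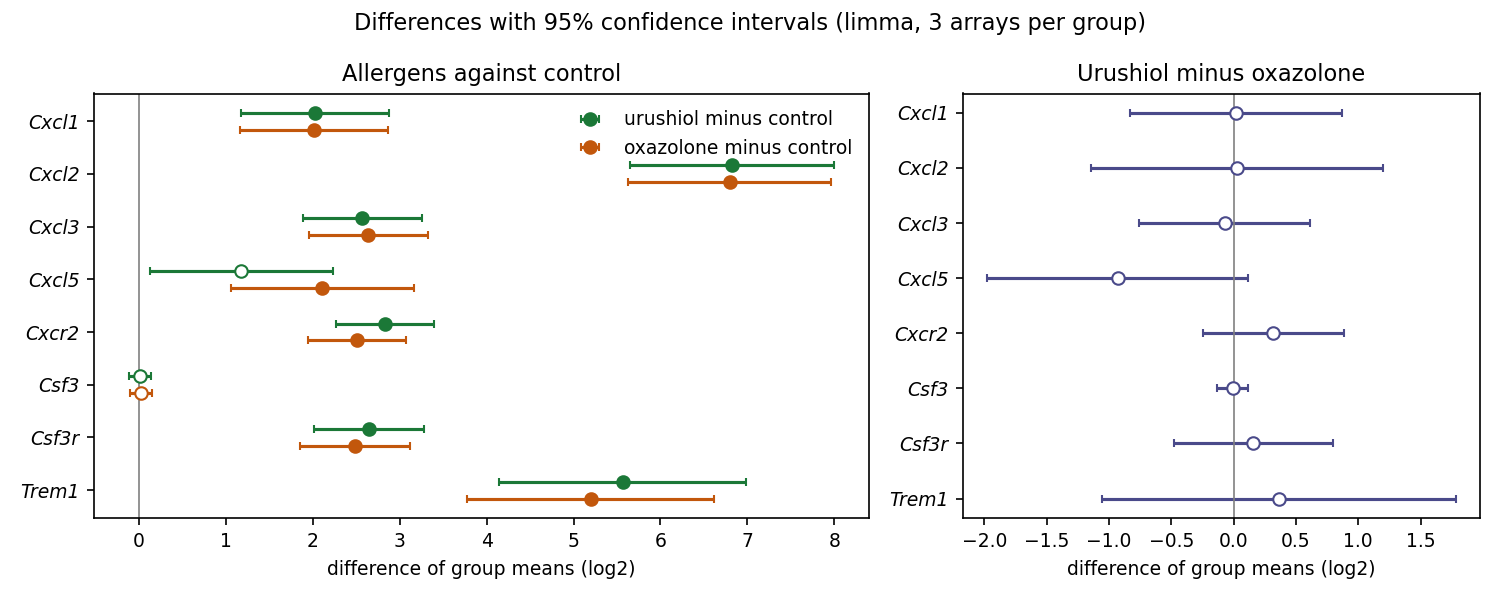
Differences of group means (x axis, log2) with 95% confidence intervals from limma for the 8 genes, on the left urushiol minus control and oxazolone minus control, on the right urushiol minus oxazolone; filled points passed an adjusted p of 0.05. Cxcl2 and Trem1 differ from control by 5.20 to 6.82, the other called genes by 2.01 to 2.83, and every interval on the right covers 0.

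Between the allergens, limma called 0 of the 8 genes, and 0 of the 8 had an unadjusted p under 0.05. The urushiol and oxazolone arrays overlapped in all 8. Of all genes, 5.35% had every urushiol array above every oxazolone array and 4.39% had every one below, so most genes overlapped too. In this comparison 0.00664% of all genes were higher and 0.00995% lower with urushiol, that is 2 and 3 genes, and 5.88% of genes had an unadjusted p under 0.05. With shares this small, counts of 0 of the 8 do not set these genes apart from others. With the replicate number as a block, 0 genes were called, and still 0 of the 8.

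The intervals of the difference, urushiol minus oxazolone, show what these arrays leave undecided. For Cxcl5 the difference was -0.93 ± 0.45 (95% interval -1.98 to 0.12, adjusted p = 0.921), and it was -0.38 without oxazolone array 2. A call for Cxcl5 against control with oxazolone and none with urushiol therefore does not show that the allergens differ. For Cxcl1 the interval was -0.83 to 0.87, for Cxcl2 -1.14 to 1.20 and for Cxcl3 -0.76 to 0.62. Among the receptor genes it was -0.25 to 0.89 for Cxcr2, -0.47 to 0.79 for Csf3r and -1.05 to 1.79 for Trem1. Only Csf3, the dim gene, had an interval within 0.15 log2 units of 0 on both sides.

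In all 8 genes the 3 urushiol arrays lay closer together than the 3 oxazolone arrays. The SD of Trem1 was 0.22 with urushiol and 1.34 with oxazolone, that of Cxcl2 was 0.35 and 1.07, that of Cxcl5 0.29 and 0.99, and that of Csf3r 0.13 and 0.61. For Cxcl1 the SDs were close, at 0.56 with urushiol and 0.61 with oxazolone, and for the dim gene Csf3 they were 0.045 and 0.091. The oxazolone SD was the greater one in 53.7% of all genes. Oxazolone array 3 was the lowest of its group in all 8 genes, which was so in 30.9% of all genes and in 20.7% of the other 2897 genes that rose with oxazolone. As the genes were read on the same arrays, these are descriptions of 3 arrays and carry no test.

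The genes did not spread alike, however. Oxazolone array 1 was the highest of its group for Cxcl2, Cxcl3, Trem1 and the dim gene Csf3, at 1.14, 0.59, 1.48 and 0.097 log2 units above the group mean. Oxazolone array 2 was the highest for Cxcl1, Cxcl5, Cxcr2 and Csf3r, at 0.67, 1.10, 0.45 and 0.45 above it. On that array Cxcl2 and Trem1 deviated from their group means by -0.16 and -0.35. In the urushiol group array 1 was the highest for Cxcl1, Cxcl2, Cxcl3, Cxcr2, Csf3r and Trem1, Csf3 was highest on array 2 and Cxcl5 on array 3.

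**Figure D4:**
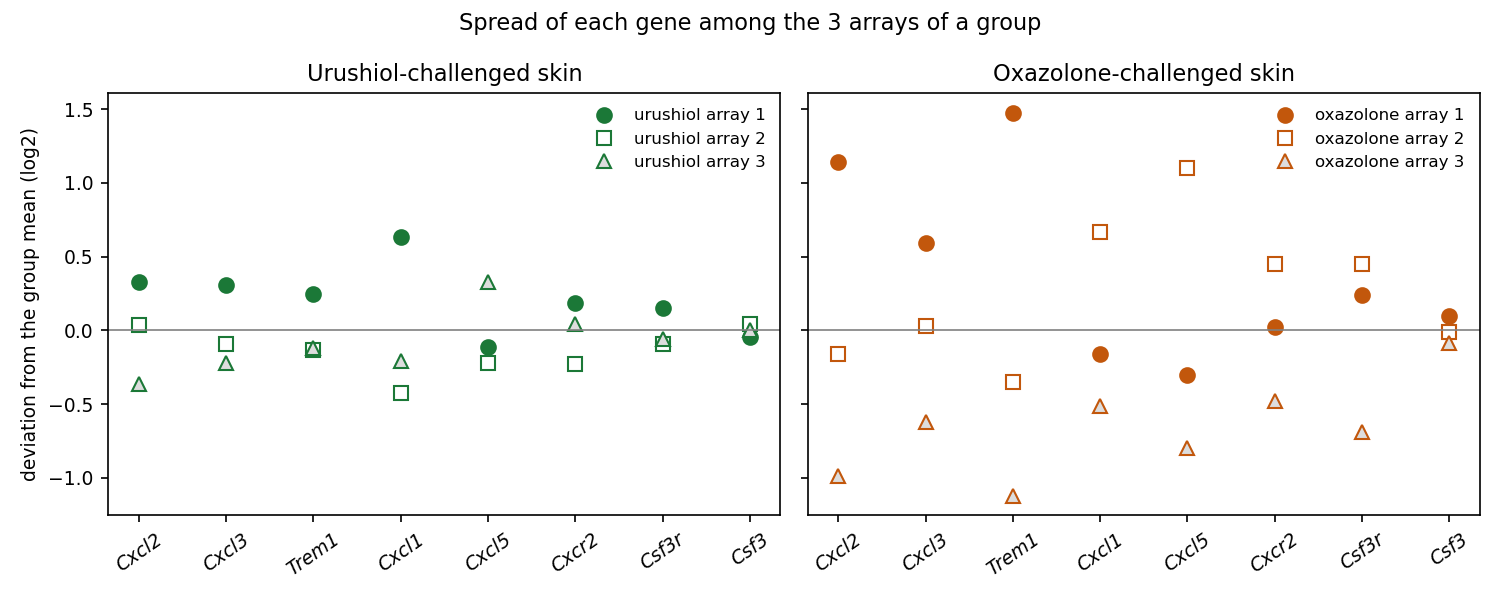
Deviation of each array from the mean of its group (y axis, log2) for the 8 genes (x axis), with urushiol-challenged skin on the left and oxazolone-challenged skin on the right; point shapes give the array number. Oxazolone array 3 is lowest throughout, while oxazolone array 1 leads in Cxcl2, Cxcl3, Trem1 and, by 0.097 above the mean, Csf3, and oxazolone array 2 in Cxcl1, Cxcl5, Cxcr2 and Csf3r.

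Other neutrophil genes were read beside these. The counts of this and the following lists stand against the 9.96% of all genes that rose with urushiol and the 9.63% that rose with oxazolone, and the 6.43% and 6.92% that fell. No gene of any list was called between the allergens. A call with only 1 allergen, or a larger difference with 1, therefore does not show that the allergens differ. Of 16 measured markers of mature neutrophils 7 rose with urushiol and 8 with oxazolone, and none fell, with median differences of 0.75 and 0.86. Il1r2, on the same list, went the other way, with every challenged array below every control array. Its differences of -0.66 ± 0.43 with urushiol and -0.98 ± 0.43 with oxazolone did not pass (adjusted p = 0.344 and 0.155). S100a8 and S100a9, whose products form the alarmin calprotectin and are also made by stressed keratinocytes, differed by 10.58 ± 0.78 and 9.98 ± 0.61 with urushiol and by 8.81 ± 0.78 and 8.23 ± 0.61 with oxazolone. The myeloid gene Slfn4 rose by 3.89 ± 0.28 with urushiol and by 5.82 ± 0.28 with oxazolone. Ly6g, the surface antigen by which mouse neutrophils are usually identified, stood at means of 6.59 with urushiol and 6.76 with oxazolone, against 6.49 in control skin. Its differences of 0.097 ± 0.098 and 0.27 ± 0.10 did not pass (adjusted p = 0.563 and 0.105).

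Of 13 measured genes of granule proteins, 3 rose with urushiol and 4 with oxazolone, with medians of 0.067 and 0.093. Mmp9 and Mmp8, the gelatinase and collagenase of neutrophil granules, rose by 2.29 ± 0.58 and 1.45 ± 0.35 with urushiol and by 3.15 ± 0.58 and 1.96 ± 0.35 with oxazolone. Lcn2, an iron-sequestering protein that keratinocytes also make, rose by 2.40 ± 0.44 and 2.24 ± 0.44, and Cd177, a surface protein of neutrophils, passed with oxazolone (0.25 ± 0.06) and stood at 0.14 ± 0.06 with urushiol (adjusted p = 0.149). Mpo, Elane, Prtn3 and Ctsg, which encode enzymes of primary granules and are transcribed mainly in bone marrow precursors, differed from control by -0.027 to 0.047 with urushiol and 0.010 to 0.033 with oxazolone. Each of these 4, and Cd177 too, lay below the array median on all 9 arrays. Other granule genes, namely Camp, Ngp, Ltf, Fcnb and Olfm4, were not called with either allergen. They differed by 0.060 to 0.15 with urushiol and by 0.023 to 0.21 with oxazolone. All of them but Camp lay below the array median on all 9 arrays.

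**Figure D5:**
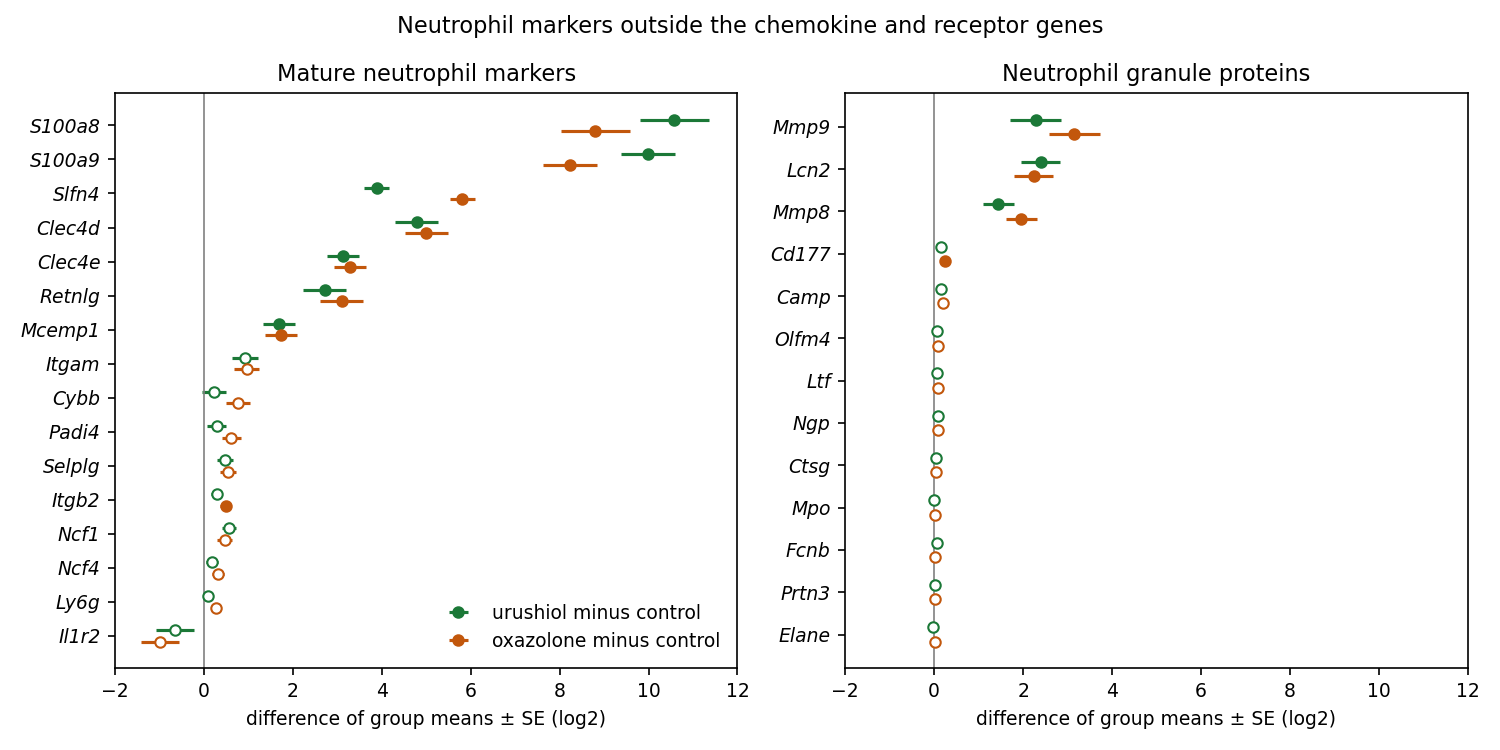
Differences of group means from control (x axis, log2, bars are standard errors) for markers of mature neutrophils on the left and granule proteins on the right, with urushiol and oxazolone points for each gene; filled points passed an adjusted p of 0.05. S100a8 and S100a9 lie farthest to the right, and Mpo, Elane, Prtn3 and Ctsg lie close to 0.

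Markers of other immune cells were read in the same way. Most members of the monocyte and macrophage, mast cell and basophil, and eosinophil lists were not called. Of the 16 mature neutrophil markers, 9 with urushiol and 8 with oxazolone were not called either. Of 11 monocyte and macrophage markers 3 rose with urushiol (Cd14, Fcgr1 and Mrc1) and 2 with oxazolone (Cd14 and Fcgr1), and none fell. The mean over this list was 10.03 to 10.45 with urushiol and 9.90 to 10.67 with oxazolone, against 9.39 to 9.65 in control skin. Trem1 and the chemokine genes can be expressed by monocytes and macrophages, and the part of these cells in the results was not tested. Of 9 mast cell and basophil markers 4 rose with urushiol (Cpa3, Cma1, Mcpt8 and Fcer1a) and 3 with oxazolone (Cpa3, Cma1 and Mcpt8), with list means of 8.62 to 9.10 and 8.60 to 8.86, against 7.99 to 8.23 in control skin. Their median differences were 0.85 with urushiol and 0.78 with oxazolone, against 0.75 and 0.86 for the mature neutrophil markers. Medians were 0.51 and 0.36 for the monocyte and macrophage list, and 0.29 and 0.14 for the eosinophil list. Of 5 eosinophil markers Ccr3 rose with both allergens, while Epx and Prg2, which encode the defining granule proteins of eosinophils, lay below the array median on all 9 arrays. In the T cell list of 7 markers, Cd4 and Cd5 rose and Cd3e and Cd3g fell with urushiol, and Cd8a and Cd5 rose and Cd3e fell with oxazolone.

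Among cells that belong to the skin, the keratinocyte list of 7 markers had 2 genes up (Krt14 and Krt1) and 2 down (Krt15 and Lor) with each allergen. Fibroblast markers fell in 3 of 5 cases with each (Col1a1, Col1a2 and Dcn). Of 6 endothelial markers none passed with urushiol and Tek fell with oxazolone. All 8 muscle markers fell with both allergens, and of 7 hair follicle markers none passed, with median differences of 4.74 with urushiol and 6.33 with oxazolone. Fewer cells of a type and less RNA per cell cannot be told apart in these lists either.

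Genes of cytokines known to induce these chemokines were read as well. Of 15 such genes 8 rose with urushiol and 10 with oxazolone, and none fell, with medians of 2.12 and 2.29. Il1b, the gene of interleukin 1 beta, rose by 7.77 ± 0.39 with urushiol and by 8.11 ± 0.39 with oxazolone. Il24 rose by 6.85 ± 0.49 and 7.88 ± 0.49, and the interleukin 1 family gene listed as Il1f6 by 7.90 ± 0.59 and 5.62 ± 0.59. Tnf differed by 1.29 ± 0.42 with urushiol (adjusted p = 0.0808) and rose by 1.66 ± 0.42 with oxazolone (adjusted p = 0.0387). Il17a and Il17f, whose proteins are strong inducers of Cxcl1, Cxcl5 and Csf3, lay below the array median on all 9 arrays, at differences of 0.017 and 0.037 with urushiol and -0.017 and 0.023 with oxazolone.

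Receptors and signal proteins of the same pathways were also measured. Of 15 measured, 5 rose with urushiol and 3 with oxazolone. Myd88, the adapter of interleukin 1 and Toll-like receptors, rose by 1.36 ± 0.18 with urushiol and by 1.67 ± 0.18 with oxazolone. Il1rap, which encodes the shared chain of interleukin 1 family receptors, rose by 0.59 ± 0.13 and 0.60 ± 0.13, and Il17ra passed with oxazolone (0.63 ± 0.16) but not with urushiol (0.31 ± 0.16, adjusted p = 0.241).

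Of 7 further ligands and receptors of the chemokine family that were measured, 2 rose and 1 fell with urushiol, and 1 rose and 1 fell with oxazolone. Cxcr4, the receptor that retains neutrophils in bone marrow and is carried by many leukocytes, rose by 3.10 ± 0.58 with urushiol and by 2.73 ± 0.58 with oxazolone. Ackr1, a receptor of venules and red cells that binds chemokines without signalling, fell, with differences of -1.78 ± 0.35 with urushiol and -1.72 ± 0.35 with oxazolone. Cxcr1 passed with urushiol at 0.49 ± 0.10 and stood at 0.30 ± 0.10 with oxazolone (adjusted p = 0.0725), below the array median on all 9 arrays.

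Beside Csf3 and Csf3r, 10 genes of the colony-stimulating factor system were measured. None rose and 1 fell with urushiol, and 4 rose and none fell with oxazolone. None of the 10 was called between the allergens. The fall was in Csf1, the macrophage growth factor gene, at -0.73 ± 0.13. Socs3 and Stat3, which encode the feedback inhibitor and the transcription factor of the G-CSF receptor among others, rose with oxazolone by 0.86 ± 0.17 and 0.83 ± 0.17 and stood at 0.33 ± 0.17 and 0.50 ± 0.17 with urushiol. Csf2, the gene of granulocyte-macrophage colony-stimulating factor, rose by 0.50 ± 0.05 with oxazolone and stood at 0.11 ± 0.05 with urushiol, though it lay below the array median on all 9 arrays. Its difference between the allergens, -0.39 (95% interval -0.51 to -0.27), did not pass over all genes (adjusted p = 0.0991).

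Around Trem1, 5 of 11 relatives and partners rose with urushiol and 4 with oxazolone, and none fell. Tyrobp, the gene of the TREM adapter DAP12, rose by 1.71 ± 0.33 with urushiol and by 1.76 ± 0.33 with oxazolone. The myeloid receptor gene Trem3 rose by 1.55 ± 0.30 and 1.38 ± 0.30, and Treml4 by 1.59 ± 0.31 and 1.34 ± 0.31. Around the formyl peptide receptors, 4 of 9 relatives and ligands rose with urushiol and 3 with oxazolone. Saa3, an acute-phase protein gene, rose by 2.55 ± 0.44 with urushiol and by 2.41 ± 0.44 with oxazolone, Anxa1, which encodes a ligand of FPR2 that limits inflammation, by 1.53 ± 0.26 and 1.51 ± 0.26, and Saa1 by 0.92 ± 0.24 and 0.95 ± 0.24. The receptor relative Fpr-rs3 rose with urushiol by 0.33 ± 0.08 (adjusted p = 0.0367) and stood at 0.19 ± 0.08 with oxazolone (adjusted p = 0.157). It lay below the array median on all 9 arrays, as did Fpr-rs4, Fpr-rs6 and Fpr-rs7, which were not called.

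The genes whose values ran most like those of the chemokines and receptors were found by Pearson's r over the 9 arrays, among 29929 other genes whose values varied. These coefficients are descriptions: the arrays fall into challenged and control skin, and any gene that differs strongly between them scores high. Closest to Cxcl2 were Ccl3, a chemokine gene of myeloid cells (0.997), Hdc, the histamine-forming enzyme (0.996), and Clec4d, a C-type lectin receptor of myeloid cells (0.995). Closest to Cxcl3 were Clec4d (0.997), its relative Clec4e (0.996) and Cstdc4 (0.995), and closest to Trem1 were Clec4d (0.993), Cstdc4 (0.990) and Csta2 (0.989). Clec4d thus stood among the nearest 3 of Cxcl2, Cxcl3 and Trem1. Csf3, which ranged over 0.18 log2 units, was not searched. Near Cxcr2 came Spink14 (0.990), Ms4a4a (0.983) and Hdc (0.982), and near Csf3r came Mirt2 (0.987), Spink14 (0.984) and 4833407H14Rik (0.983). Cxcl1 had Eif2s2 (0.994), Gm9733 (0.985) and Gm4904 (0.984) nearest, and Cxcl5 had Il13ra2, the decoy receptor of interleukin 13 (0.975), Olfr898 (0.969) and Mmp8 (0.967).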

How the data were processed

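Total RNA of 9 skin samples was hybridised to Affymetrix arrays, and the titles gave each sample's group and number. The authors deposited 1 log2 value per transcript cluster and array. The submitters' processing notes list Affymetrix Expression Console 1.4, RMA and the Transcriptome Analysis Console without saying what each was used for. As RMA is defined, it subtracts background, makes the arrays' quantiles equal and combines the probes of a cluster. No genome build is named for the values. Control features (6732 of 72688) were left out. Of 65956 clusters, 30604 had 1 symbol, 2146 several and 33206 none. Symbols were updated through gene IDs to a RefSeq table (GRCm38.p6), and each gene took its cluster with the highest mean over the 9 arrays. Precision is limited by the number of arrays. The median standard error over all genes was 0.113, and for the measured members other than Csf3 it was 0.24 to 0.60.

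Two-sided moderated tests of the group differences came from limma 3.58.1 (R 4.3.3), and p-values were adjusted by Benjamini-Hochberg across all 30142 genes, with 0.05 as threshold. The fitting was tested on simulated data. The members and the 19 context lists (173 of 188 symbols measured) were chosen with earlier results of these data known. Named genes were all members, the 3 called genes of each list with the largest difference for oxazolone, the genes of counts of 3 or fewer, and the 3 genes most like each member that ranged over at least 1 log2 unit. Genes named beyond this rule were chosen after their values were seen. They were Ly6g, Il1r2, Cd177, Mpo, Elane, Prtn3, Ctsg, Camp, Ngp, Ltf, Fcnb and Olfm4. Further ones were Tnf, Il17a, Il17f, Fcer1a, Epx, Prg2, the Fpr relatives and others in short counts. Same-numbered urushiol and oxazolone arrays had deviations from their group means that correlated at 0.124 to 0.201, all above 0.1, which meets the rule set for pairing, although the labels state none, and the reported fit has no block; of 6 same-numbered pairs with a control array 4 lay below 0.1. Alternatives were the replicate block, quantile renormalisation, median centring, removal of dim genes, averaging the clusters of a gene, every cluster tested, trended robust variances, array weights, the 2 groups alone and each array left out. Promoter motifs were searched with Python 3.11.15.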

Additional observations from a re-analysis of the deposited data

How the results depend on the processing

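Of the 8 genes, 5 to 7 rose with urushiol and 5 to 7 with oxazolone when 1 array was left out, 6 or 7 under the other alternatives, and none fell. Cxcl2, Cxcl3, Cxcr2, Csf3r and Trem1 were called against control in all 18 alternatives of each comparison, and 0 of the 8 were called between the allergens in any of 19. The replicate block changed no call of the 8 genes. Counts over all genes were less stable. For urushiol against control, 4942 genes became 8135 with array weights and 2324 with the 2 groups alone, and 2189 to 7655 with 1 array left out (control array 1 gave 2328, control array 2 2217, control array 3 7655, urushiol array 1 2189, urushiol array 2 3134 and urushiol array 3 2429). For oxazolone against control, 4989 became 7688 with array weights and 2198 with the 2 groups alone, and 2107 to 8019 with 1 array left out (control array 1 gave 2107, control array 2 2127, control array 3 8019, oxazolone array 1 2477, oxazolone array 2 2831, oxazolone array 3 2460 and urushiol array 3 3185). Between the allergens 5 became 0 with either replicate block, with median centring and with trended robust variances, 35 without dim genes, 54 with array weights, 2 with the 2 groups alone, and 0 to 94 with 1 array left out. With quantile renormalisation, 2297 genes were higher and 2341 lower for urushiol, where the deposited values gave 3003 and 1939, and 2127 and 2937 for oxazolone, where they gave 2904 and 2085; median centring gave 2489 and 2606 for oxazolone. Differences near 0 changed sign. With quantile renormalisation and median centring, Csf3 stood at -0.022 and -0.037 for urushiol, at -0.033 and -0.043 for oxazolone, and at 0.011 and 0.007 between the allergens. With array weights the difference between the allergens was -0.069 for Cxcl1, -0.028 for Cxcl2 and 0.010 for Csf3. With 1 array left out, that difference ran from -0.30 to 0.35 for Cxcl1, -0.47 to 0.60 for Cxcl2, -0.38 to 0.23 for Cxcl3, -0.048 to 0.042 for Csf3, -0.19 to 0.39 for Csf3r and -0.20 to 1.11 for Trem1, and Csf3 ran from -0.005 to 0.040 for urushiol and -0.025 to 0.065 for oxazolone against control. The cause of these changes was not tested. Csf3 was removed by the filter on dim genes. With 3 arrays per group, probes of related chemokines not checked for shared sequence and no detection calls, the arrays limit what can be said of dim genes and of small differences between the allergens.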

Other observations

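Genes through which neutrophils leave the blood were also read. Of 11 measured adhesion genes 3 rose with urushiol and 6 with oxazolone, and none fell. Sele, the endothelial selectin that first slows neutrophils, rose by 1.18 ± 0.25 with urushiol (adjusted p = 0.0216) and by 1.88 ± 0.25 with oxazolone (adjusted p = 0.00457). Cd44, a receptor for hyaluronan on leukocytes and keratinocytes, rose by 3.06 ± 0.42 and 2.95 ± 0.42, and Itgal, the alpha chain of the integrin LFA-1, by 0.46 ± 0.06 and 0.87 ± 0.06. Vcam1 and Icam1, ligands of leukocyte integrins, rose with oxazolone by 1.69 ± 0.37 and 1.03 ± 0.14 and stood at 1.12 ± 0.37 and 0.21 ± 0.14 with urushiol. The difference between the allergens did not pass for Icam1 (-0.82, 95% interval -1.16 to -0.48, adjusted p = 0.211) or Itgal (-0.41, 95% interval -0.56 to -0.26, adjusted p = 0.149). These intervals leave out 0 only because, unlike the p-values, they are not adjusted over all genes.

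Of 9 measured genes of other neutrophil attractants, 2 rose and 1 fell with urushiol, and 1 rose and 1 fell with oxazolone. Ltb4r1, the receptor for leukotriene B4, rose by 1.82 ± 0.20 with urushiol and by 1.29 ± 0.20 with oxazolone. Alox5, the enzyme that starts leukotriene synthesis, fell, with differences of -0.58 ± 0.15 with urushiol and -0.74 ± 0.15 with oxazolone, and Lta4h, which makes leukotriene B4, passed with urushiol at 0.42 ± 0.11 and stood at 0.17 ± 0.11 with oxazolone (adjusted p = 0.318).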
